A study of Homo sapiens with 6 samples.

Results

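Prostaglandin synthesis and receptor genes were examined with and without TGF-β1 in HK-2, an immortalised cell line from the epithelium of the human proximal tubule. The 10 genes were PTGS1, PTGS2, PTGES, PTGES3, PTGIS, HPGD, PTGER1, PTGER2, PTGER3 and PTGER4. They were chosen by name, with earlier results of these data known. Each name was read from its primary-chromosome entry among 41497 named entries of hg38, and all 10 genes were found. The series compared 3 control libraries of untreated wild-type cells with 3 libraries of wild-type cells given TGF-β1, a profibrotic cytokine, and every library was collected at 24 hours. All 6 libraries came from 1 cell line. The labels give no dose of TGF-β1. The study's methods state a dose for HK-2 cells and describe treatment without serum, and whether control cells were also without serum was not stated. The labels do not say whether replicates were separate cultures, so p values measure the spread between these libraries, which may be technical.

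Prostaglandins are made from arachidonic acid, which phospholipases release from membranes. The cyclooxygenases PTGS1 (COX-1) and PTGS2 (COX-2) turn it into the intermediate PGH2, and terminal synthases turn PGH2 into PGE2, prostacyclin and other prostanoids. HPGD inactivates PGE2, and PGE2 acts on the G protein-coupled receptors EP1 to EP4, encoded by PTGER1 to PTGER4. In the kidney this system acts on blood flow and on salt and water transport.

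Each library held between 21938622 and 26906067 counts. The first principal component of log2 CPM held 69.6% of the variance and the second 9.91%. On the second, TGF-β1 replicate 1 lay at 28.98, and the other TGF-β1 libraries lay at -13.6 and -16.7. The control libraries lay at 10.5, 4.48 and -13.7 on it. COL1A1 and SMAD7, known targets of TGF-β signaling, rose by 3.30 and 1.64 on the log2 scale after TGF-β1. Of 11 markers of renal epithelium, 8 passed the count filter, and KRT8, KRT18, KRT19, PAX8 and GGT1 were abundant. AQP1 and CUBN were rare, with 28 and 34 reads in all control libraries. After TGF-β1, KRT8, KRT18, AQP1 and CUBN were higher, and KRT19, PAX8, PAX2 and GGT1 were lower. LRP2, which encodes the brush border receptor megalin, had no count in any library, and ANPEP and SLC34A1 had at most 7. Of the endothelial genes, CDH5 had 62 reads, PECAM1 14 and VWF 4 in control, all had 0 after TGF-β1, and KDR had 1 read in all. The summed TPM of these 4 endothelial markers was 0.617 to 1.15 in the control libraries and 0 to 0.0195 with TGF-β1. The leukocyte markers PTPRC and CD3E had 4 and 0 reads in all 6 libraries. The summed TPM of 4 leukocyte markers was 189 to 202 in the control libraries and 112 to 149 with TGF-β1, nearly all of it from CD68, a lysosomal gene. Of 4 fibroblast and pericyte markers the summed TPM was 74.3 to 89.3 in the control libraries and 60.7 to 65.0 with TGF-β1, although PDGFRB rose by 3.38 on the log2 scale. The part of these markers in the results was not tested.

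The starts of genes that moved in opposite directions are shown first. RefSeq promoter sequences of GRCh38.p14 were found for 8 of the 10 genes, with 10 starts in all. The bases before both starts of PTGS1 and the start of PTGES3 lay in exons of longer transcripts and are not printed. Below are the bases before the start of PTGS2 (chr1:186680424-186680673, minus strand), which rose, of HPGD (chr4:174522489-174522623, minus strand, only the bases outside exons), which fell, and of PTGES (chr9:129753043-129753292, minus strand), which did not pass the test. Capitals mark a TATA box TATAAA, the core TGACG of a cAMP response element (CRE), a SMAD box CAGAC or a GC box GGGCGG, on either strand.
PTGS2: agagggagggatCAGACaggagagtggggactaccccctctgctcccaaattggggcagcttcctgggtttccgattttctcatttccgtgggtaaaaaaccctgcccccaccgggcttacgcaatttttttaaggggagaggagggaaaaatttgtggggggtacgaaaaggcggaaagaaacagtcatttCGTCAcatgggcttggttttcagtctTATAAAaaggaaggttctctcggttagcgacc
HPGD: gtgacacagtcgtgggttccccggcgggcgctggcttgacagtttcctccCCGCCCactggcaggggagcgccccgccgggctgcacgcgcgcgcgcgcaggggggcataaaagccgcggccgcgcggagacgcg
PTGES: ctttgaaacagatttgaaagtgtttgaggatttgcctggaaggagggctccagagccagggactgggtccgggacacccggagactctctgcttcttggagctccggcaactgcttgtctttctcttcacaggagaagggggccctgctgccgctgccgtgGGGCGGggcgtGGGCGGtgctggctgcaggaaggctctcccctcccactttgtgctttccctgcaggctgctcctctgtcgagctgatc

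The TATAAA of PTGS2 began 32 bases before the start, and this motif was in 10.7% of 35116 promoters of the same length. The CRE core of PTGS2 began 58 bases before the start and the SMAD box 238 bases before it. The printed stretch of PTGS2 overlaps the first 20 bases of PACERR, an antisense RNA. No TATAAA was found in the windows of HPGD or PTGES. The HPGD stretch is from the inner of its 2 starts. Before the outer start, which is not printed, a CRE core began 77 bases before it. PTGES held 2 copies of GGGCGG, and 8 of the 10 member starts held at least 1, against 42.6% of all promoters. The SMAD box was found at 6 of 10 starts, against 38% of all promoters, and the CRE core at 4 of 10, against 21.2%. The consensus of NF-kB was found at 4 of 10 starts, against 9.96%. TGANTCA (AP-1), TGACGTCA (CRE) and CACGTG (E-box) were found at 0 of 10, against 6.57%, 1.65% and 6.34%. PTGS1 and HPGD have 2 starts each, both strands were searched, and TGACG lies within TGACGTCA. A match is a description of letters only.

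To compare levels between genes, TPM values were used, since TPM divides reads by gene length and scales each library to the same total. PTGES3 was the most abundant member at 496 ± 12.6 TPM in control (SD, n = 3), followed by PTGES at 230 ± 9.68 and PTGER2 at 30.8 ± 1.15. HPGD at 9.65 ± 0.166 and PTGS1 at 7.39 ± 0.311 came next. PTGIS at 4.03 ± 0.445 and PTGER1 at 3.04 ± 0.867 TPM overlapped between libraries, so their order was not resolved. PTGER4 at 0.606 ± 0.172 TPM, PTGS2 at 0.219 ± 0.0783 and PTGER3 at 0.0179 ± 0.0201 were lowest. After TGF-β1 the first 3 places were unchanged, PTGIS came next at 6.10 ± 0.0209 TPM, and HPGD and PTGS1 followed at 3.51 ± 0.305 and 1.70 ± 0.215. PTGS1 then overlapped with PTGER1 at 1.32 ± 0.263 TPM. PTGS2 at 0.854 ± 0.133 TPM stood above PTGER4 at 0.228 ± 0.0897.

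**Figure D1:**
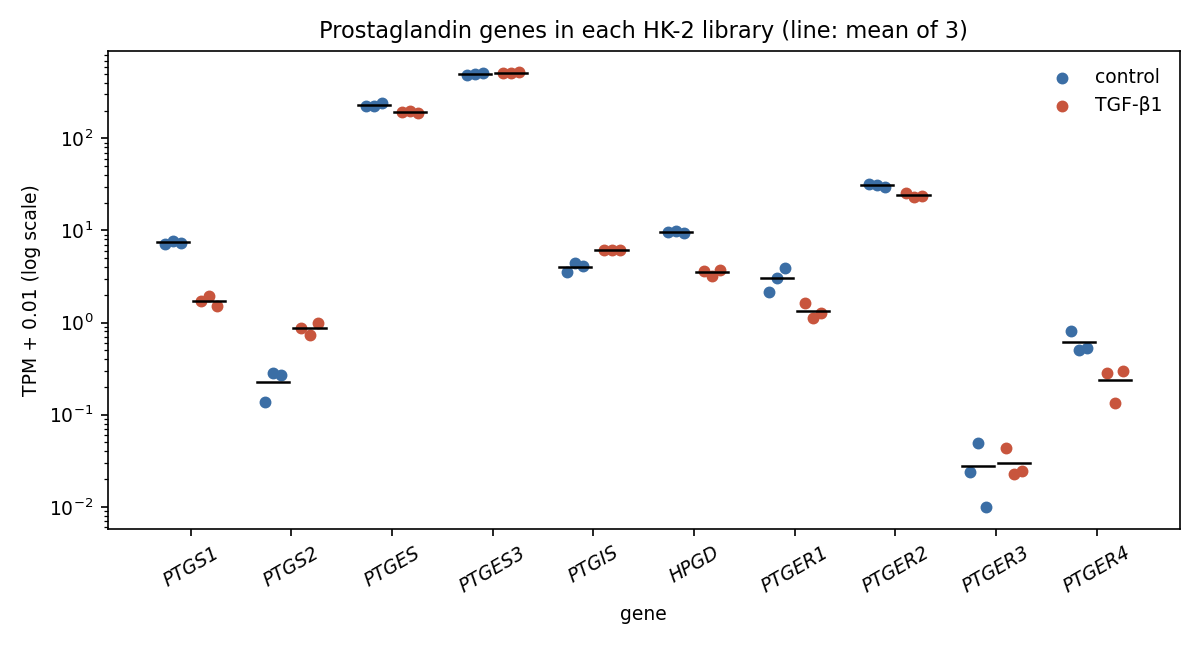
TPM of each prostaglandin gene in each library, with 0.01 added, on a log axis. Blue points are the 3 control and red points the 3 TGF-β1 libraries, and black lines are group means. PTGS1, HPGD and PTGER4 sit lower and PTGS2 and PTGIS higher after TGF-β1, with no overlap, and PTGER3 sits near the bottom in both groups.

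To test the response to TGF-β1, edgeR was fitted to the counts of 14860 genes and a gene was called at an adjusted p under 0.05. The count filter left 9 of the 10 genes, and 8 of these were called, 3 of them higher and 5 lower. Over all genes tested 44.3% were called, 22.2% higher and 22.1% lower. Among the members, 5 were called with a change of at least 2-fold, against 9.06% of all genes. The libraries of the 2 groups did not overlap for 9 of the 9 tested members, against 55.6% of all genes tested. The median log2 fold change was -0.24 over the 9 tested members and 0.01 over all genes tested. PTGS2 passed the filter, which asks for 0.435 CPM by total counts in 3 libraries, only in the TGF-β1 group, and PTGER4 only in control. The CPM values given for genes are counts scaled to TMM-adjusted library size. Both PTGS2 and PTGER4 are among the 5 changed at least 2-fold and among the 9 without overlap, so those counts lean on them. Without PTGS2 and PTGER4, 6 of 7 were called, and those changed at least 2-fold were PTGS1, HPGD and PTGER1. Without control replicate 1 the count fell to 5 members called (PTGS1, PTGS2, PTGIS, HPGD and PTGER1), against 37.0% of all genes. Without TGF-β1 replicate 1, which lay apart from its group on the second principal component, the count was 9, against 47.6% of all genes.

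**Figure D2:**
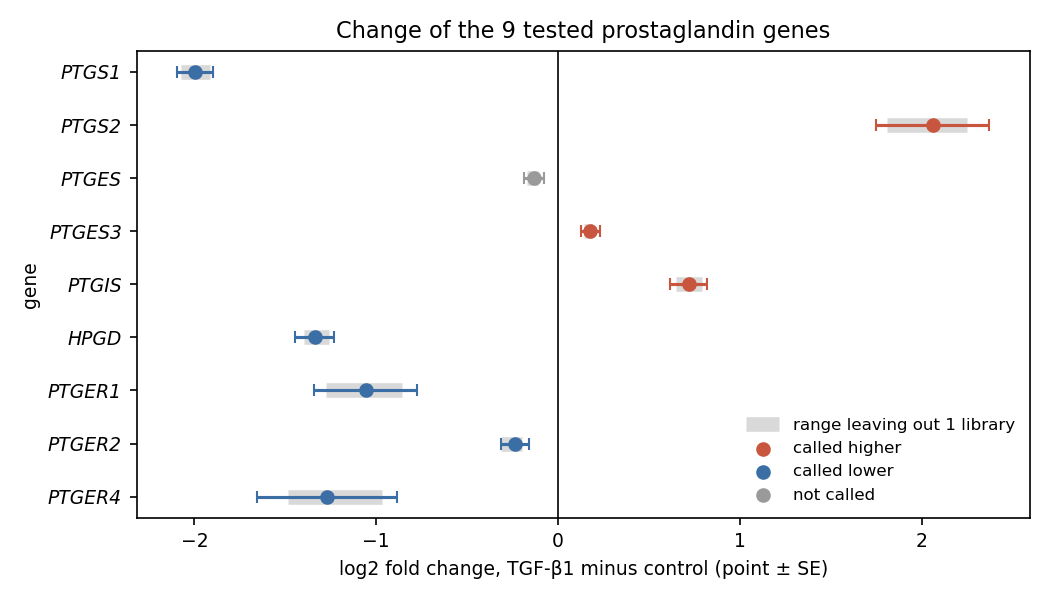
Log2 fold change (TGF-β1 minus control) of the 9 tested members from edgeR, with SE bars. Grey bands span the values when 1 library was left out. Red is called higher, blue called lower and grey not called. PTGS2 lies at 2.06 and PTGS1 at -2.00, and every band stays on its side of 0.

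The cyclooxygenases moved in opposite directions. PTGS1 (chr9:122369906-122395703), the constitutive cyclooxygenase, was at 21.4, 22.6 and 20.7 CPM in the control libraries, against 5.53, 5.96 and 4.68 CPM with TGF-β1. All TGF-β1 libraries lay far below every control library. Its log2 fold change was -2.00 ± 0.10 (SE), with an edgeR adjusted p of 5.33e-08, and it stayed between -2.08 and -1.91 when any 1 library was left out. In bulk RNA, less RNA per cell and fewer cells of a type cannot be told apart. PTGS2 (chr1:186671791-186680423), the inducible cyclooxygenase, had 4, 9 and 8 reads in the control libraries, against 34, 25 and 30 reads with TGF-β1. Each TGF-β1 library had more reads than all control libraries summed, although the gene remained rare. The log2 fold change of PTGS2 was 2.06 ± 0.31 (SE), with an edgeR adjusted p of 3.21e-04. The ratio of reads was 4.20 (95% exact interval 2.59 to 7.11, which covers counting error only). The antisense RNA PACERR, which starts just upstream of PTGS2, had 3 reads in all in each group. Of the regulators of mRNA decay that act on AU-rich transcripts such as PTGS2, 7 of 8 were tested. Of these 1 rose and 1 fell, against 22.2% higher and 22.1% lower of all genes tested. ZFP36L1, which promotes such decay, rose from 401 ± 6.92 to 461 ± 27.2 CPM (log2 fold change 0.20, edgeR adjusted p 0.0140). Its call was lost with total counts only (0.10, p 0.215) and without control replicate 1 (p 0.0547) or 2 (p 0.0622). TIA1, a translational silencer, fell from 114 ± 3.17 to 99.9 ± 8.48 CPM (log2 fold change -0.19, edgeR adjusted p 0.0385). That call was lost without control replicate 1 (p 0.0668), 2 (p 0.115) or 3 (p 0.118). ZFP36, the gene with the lowest log2 fold change of the list at -0.32, was not called (edgeR adjusted p 0.115), except with total counts only (-0.43, p 0.0442).

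The makeup of cyclooxygenase mRNA differed between the groups. The summed TPM of PTGS1 and PTGS2 was 7.33, 8.03 and 7.48 in the control libraries, against 2.55, 2.64 and 2.48 with TGF-β1. PTGS2 made up 1.75%, 3.38% and 3.43% of that sum in control and 33.7%, 27.2% and 39.7% after TGF-β1. PTGS1 was still the larger part in every library. These shares are of mRNA levels, and they rest on few PTGS2 reads. They also depend on the lengths that TPM divides by, 9700 bases for PTGS1 and 4510 for PTGS2. In reads summed over libraries, PTGS1 had 1521 and PTGS2 21 in control, against 386 and 89 with TGF-β1.

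**Figure D3:**
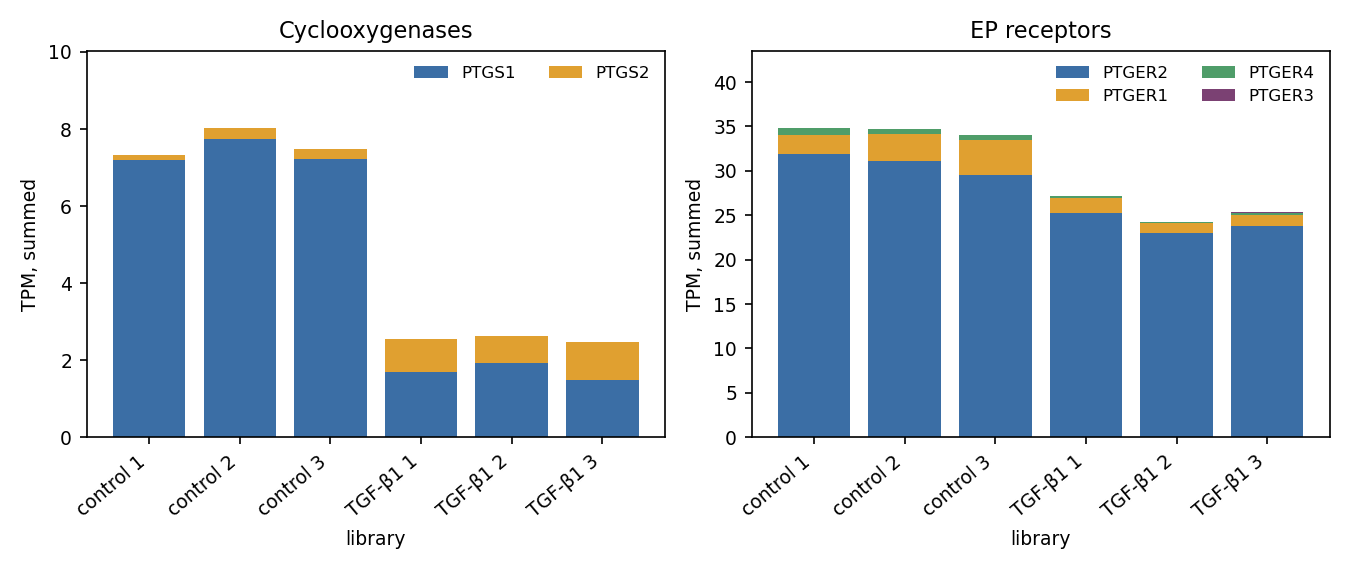
Summed TPM of the cyclooxygenases (left) and of the EP receptors (right) in each library, stacked by gene, with axes from 0. The cyclooxygenase sum is 7.33 to 8.03 in the control libraries and 2.48 to 2.64 with TGF-β1, and PTGER2 is the largest part of the receptor sum in every library.

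By the distance of log2 CPM over the 6 libraries, centred on the control mean, the genes most like PTGS2 among 10595 candidates were NR2F1-AS1 (an antisense RNA), CNTNAP3 (which has close paralogs) and NIPAL4 (a magnesium transporter), with root mean square differences of 0.238, 0.281 and 0.297. Their log2 fold changes were 2.19, 1.82 and 2.12. The genes most like PTGS1 were SEMA3B, CX3CL1 and CXCL5, at 0.0760, 0.105 and 0.118, with log2 fold changes of -2.03, -1.90 and -2.14. SEMA3B encodes a secreted semaphorin, and CX3CL1 and CXCL5 encode chemokines. Antisense RNAs and close paralogs are uncertain, since the counting is not stated to use strand and shared reads may be split. These distances describe the libraries and carry no test.

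Among the synthases, PTGIS rose, PTGES was not called and PTGES3 rose by little. PTGIS (chr20:49503874-49568137), the prostacyclin synthase, was at 6.03, 7.40 and 6.78 CPM in the control libraries, against 11.5, 10.8 and 10.9 CPM with TGF-β1. The groups were well separated, and the TGF-β1 libraries lay close together. Its log2 fold change was 0.72 ± 0.10 (SE), with an edgeR adjusted p of 2.17e-04. Prostacyclin synthase is known from endothelium and smooth muscle. The 4 endothelial markers had 1 read in all in the TGF-β1 libraries (KDR, in replicate 1), and the pericyte marker PDGFRB rose from 0.551 ± 0.0938 to 5.79 ± 0.429 CPM. The other markers of that list did not rise with it. RGS5 and LUM were called lower (log2 fold change -0.35 and -0.28), and DCN did not pass the filter. The part of PDGFRB-expressing cells in the rise of PTGIS was not tested. PTGES (chr9:129738349-129753042), the inducible microsomal PGE synthase, was at 120.1, 118 and 124 CPM in the control libraries, against 114, 110 and 106 CPM with TGF-β1. All TGF-β1 libraries were lower, but by little. The log2 fold change of PTGES was -0.13 ± 0.05 (SE) and was not called (edgeR adjusted p 0.0621). It was called without TGF-β1 replicate 1 (-0.17, p 0.00454), with total counts only (-0.24, p 0.00414) and when genes under a mean of 50 counts were left out (-0.15, p 0.0334). PTGES3 (chr12:56663349-56689575), also known as p23, is both a cytosolic PGE synthase and a cochaperone of HSP90. It was at 699, 708 and 709 CPM in the control libraries, against 823, 777 and 792 CPM with TGF-β1. Its log2 fold change was 0.18 ± 0.05 (SE), with an edgeR adjusted p of 0.0158. The call was lost with total counts only (0.07, p 0.311) and without control replicate 1 (p 0.0596), control replicate 2 (p 0.0611) or TGF-β1 replicate 3 (p 0.0515). GENCODE v29 lists 5 pseudogenes of PTGES3, and 0 of them were entries of the files, so reads shared with them could not be assessed.

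PTGES2, another membrane PGE synthase that is not among the 10 genes, fell. It went from 118 ± 8.80 to 71.9 ± 4.71 CPM (log2 fold change -0.71 ± 0.07, edgeR adjusted p 1.37e-05). The summed TPM of PTGES, PTGES2 and PTGES3 was 868 to 901 in the control libraries and 793 to 805 with TGF-β1. TPM is not scaled by TMM, and PTGES3 went from 496 to 517 TPM but from 705 to 797 CPM. The size of the difference in the summed TPM therefore depends on the scaling, and it was not tested. PTGES3 made up 55.6% to 56.4% of this sum in control and 64.0% to 65.5% after TGF-β1, and PTGES2 went from between 16.9% and 19.3% to between 10.8% and 11.7%. Beside PTGES3, the list of HSP90 genes and cochaperones had 8 of 8 genes tested, with a median log2 fold change of 0.08. Of these 1 was called higher and 2 lower, against 22.2% higher and 22.1% lower of all genes tested. HSP90AA1, the inducible HSP90, fell from 2419 ± 84.2 to 2051 ± 104 CPM (log2 fold change -0.24, edgeR adjusted p 0.00809). FKBP5 fell by 0.25 on the log2 scale (edgeR adjusted p 0.00224) and PPID rose by 0.27 (edgeR adjusted p 0.00519). The call of PPID was lost with total counts only (0.16, p 0.0618).

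HPGD (chr4:174490175-174522893), the enzyme that inactivates PGE2, fell. It was at 13.0, 12.9 and 12.2 CPM in the control libraries, against 5.34, 4.43 and 5.30 CPM with TGF-β1. The groups were far apart. Its log2 fold change was -1.34 ± 0.10 (SE), with an edgeR adjusted p of 2.10e-06, and it stayed between -1.40 and -1.26 when any 1 library was left out. An antisense entry, LOC105377548, overlaps 50 exonic bases of HPGD and had 10, 13 and 18 reads in the control libraries, against 3, 5 and 4 with TGF-β1. Without stated strand, reads in the shared bases cannot be told apart.

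Of 8 other genes of prostaglandin transport and breakdown 6 were tested, 1 rose and 5 fell, against 22.2% higher and 22.1% lower of all genes tested. Their median log2 fold change was -0.33. SLCO2A1, the prostaglandin uptake transporter, had 416, 405 and 399 reads in the control libraries, against 986, 842 and 705 with TGF-β1, and rose from 17.3 ± 0.981 to 35.5 ± 2.17 CPM. Its log2 fold change was 1.03 ± 0.07 (SE), with an edgeR adjusted p of 8.69e-07. ABCC4, an exporter of PGE2 and cyclic nucleotides, had 1841, 1981 and 1853 reads in the control libraries, against 907, 947 and 794 with TGF-β1, and fell from 80.5 ± 1.37 to 37.3 ± 2.23 CPM. The log2 fold change of ABCC4 was -1.11 ± 0.06 (SE), with an edgeR adjusted p of 1.19e-07. The uptake transporter was higher and the exporter lower in every TGF-β1 library. The prostaglandin reductases PTGR1, PTGR2 and PTGR3 (listed as ZADH2) fell by 0.28, 0.64 and 0.35 on the log2 scale, with edgeR adjusted p values of 0.00205, 1.59e-04 and 0.00283. CBR3, a carbonyl reductase, fell by 0.32 on the log2 scale (edgeR adjusted p 0.0474). Its call was lost with DESeq2 (p 0.106), with limma-voom (p 0.0588) and when all genes with a count were kept (p 0.0612). It was also lost without control replicate 1 (p 0.0889), control replicate 2 (p 0.208), TGF-β1 replicate 2 (p 0.128) or TGF-β1 replicate 3 (p 0.126).

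The receptors with detectable change were lower. PTGER2 (chr14:52314312-52328598), the Gs-coupled receptor EP2, was at 23.9, 23.01 and 21.4 CPM in the control libraries, against 20.9, 18.1 and 18.9 CPM with TGF-β1. The groups nearly touched. The log2 fold change of PTGER2 was -0.24 ± 0.08 (SE), with an edgeR adjusted p of 0.0265. It was not called by DESeq2 (p 0.0638) or without control replicate 1 (p 0.108), control replicate 2 (p 0.0845), TGF-β1 replicate 2 (p 0.0981) or TGF-β1 replicate 3 (p 0.0763). PTGER4 (chr5:40679915-40740936), the other Gs-coupled receptor (EP4), had 23, 15 and 15 reads in the control libraries, against 10, 4 and 8 with TGF-β1. Every TGF-β1 library was lower, on few reads. Its log2 fold change was -1.27 ± 0.39 (SE), with an edgeR adjusted p of 0.0203, and its read ratio was 0.411 (95% exact interval 0.238 to 0.688). The call was lost with DESeq2 (p 0.0834) and without control replicate 1 (p 0.0948) or TGF-β1 replicate 2 (p 0.0730). TTC33 runs over the span of PTGER4 on the opposite strand but shares 0 exonic bases with it, and GENCODE v29 lists 2 PTGER4 pseudogenes that were not entries of the files.

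PTGER1 (chr19:14472466-14475354), the calcium-mobilising receptor EP1, had 21, 32 and 38 reads in the control libraries, against 20, 12 and 12 with TGF-β1. In CPM the groups did not overlap, with 0.930 as the lowest control value and 0.768 as the highest TGF-β1 value. The log2 fold change of PTGER1 was -1.06 ± 0.28 (SE), with an edgeR adjusted p of 0.0111, and its read ratio was 0.479 (95% exact interval 0.326 to 0.694). Without control replicate 3 it was -0.86 and not called (p 0.0569). PTGER3 (chr1:70852358-71047816), the Gi-coupled receptor EP3, had 1, 3 and 0 reads in the control libraries, against 3, 1 and 1 with TGF-β1. It did not pass the filter. The ratio of reads was 1.24 (95% exact interval 0.267 to 6.24), so no change was detectable at this depth, and the exact two-sided permutation p was 0.9, where 0.1 is the smallest possible with 3 against 3. Its exons share 909 bases with ZRANB2-AS1 on the opposite strand, which had 75 to 126 reads per library.

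In summed TPM, the 4 EP receptors were at 34.8, 34.7 and 34.0 in the control libraries, against 27.2, 24.3 and 25.3 with TGF-β1. The size of this difference depends on the scaling, since PTGER2 went from 30.8 to 24.0 TPM but from 22.8 to 19.3 CPM. PTGER2 made up 87.0% to 91.5% of the sum in control and 92.9% to 94.9% after TGF-β1. Among 6 genes listed as other prostanoid receptors, 3 (PTGFR, TBXA2R and PTGFRN) were tested and 0 were called by edgeR. At an unadjusted p under 0.05 there were also 0, and DESeq2 called 0. PTGFRN is not itself a prostanoid receptor. PTGFR, the receptor of PGF2α, was at 46.8 ± 1.53 CPM in control and 43.6 ± 1.55 after TGF-β1 (log2 fold change -0.10 ± 0.06, edgeR adjusted p 0.183), and was called lower with total counts only (-0.21, p 0.0139). TBXA2R, the thromboxane receptor, was at 2.05 ± 0.288 and 2.49 ± 0.226 CPM (log2 fold change 0.28 ± 0.18, edgeR adjusted p 0.224).

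Upstream of the cyclooxygenases, 10 of 14 genes of arachidonate release were tested, 2 rose and 7 fell, against 22.2% higher and 22.1% lower of all genes tested. Their median log2 fold change was -0.66. The list mixes enzymes with ANXA1, an inhibitor, which was among the 7. MGLL, the lipase of 2-arachidonoylglycerol, had 3361, 3680 and 3439 reads in the control libraries, against 1902, 1718 and 1464 with TGF-β1, and fell by 1.06 ± 0.05 (SE) on the log2 scale (edgeR adjusted p 4.08e-08). The diacylglycerol lipases DAGLA and DAGLB, which make 2-arachidonoylglycerol, fell by 0.95 and 0.64 on the log2 scale, with edgeR adjusted p values of 4.03e-05 and 2.14e-05. PLAAT3, a phospholipase, fell by 0.91 (p 5.54e-06), and ANXA1, annexin A1, an inhibitor of phospholipase A2, fell by 0.88 (p 1.48e-06). PLA2G15, a lysosomal phospholipase, fell by 0.27 (p 0.00827). PLA2G4A, the cytosolic phospholipase that supplies the cyclooxygenases, reached the limit of the count filter in all 3 TGF-β1 libraries but in 1 control library, so it passed through the group where it is high. It had 4, 5 and 11 reads in the control libraries, against 20, 18 and 14 with TGF-β1, with a log2 fold change of 1.35 ± 0.38 (SE), at an edgeR adjusted p of 0.0147. The call was lost with DESeq2 (p 0.0743) and without control replicate 1 (p 0.0583) or control replicate 2 (p 0.0620). PLA2G4A lies 148525 bases from PTGS2 on chromosome 1, with PACERR as the only entry between them. PLA2G12A, a secreted phospholipase, rose by 0.21 (edgeR adjusted p 0.0133), and its call was lost with total counts only (0.10, p 0.195) and without control replicate 1 (p 0.0621) or TGF-β1 replicate 3 (p 0.0544).

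Among the other synthases and reductases, 7 of 8 genes were tested. Of these 2 rose and 2 fell, against 22.2% higher and 22.1% lower of all genes tested. AKR1B1, the aldose reductase that also makes PGF2α, was the most abundant and fell from 2215 ± 146 to 1009 ± 41.7 CPM (log2 fold change -1.13 ± 0.07, edgeR adjusted p 1.71e-07). PRXL2B, a prostamide and PGF synthase, had 13, 9 and 26 reads in the control libraries, against 100, 79 and 31 with TGF-β1, with a log2 fold change of 2.07 ± 0.48 (SE), at an edgeR adjusted p of 0.0106. Its TGF-β1 libraries were far apart, its call was lost without control replicate 1 (p 0.0531), and its name has 2 entries, so its value is uncertain. It reached the limit of the count filter in 2 of 3 control libraries. TBXAS1, the thromboxane synthase, rose by 0.22 on the log2 scale (edgeR adjusted p 0.0329). This call was lost with DESeq2 (p 0.140), with total counts only (0.11, p 0.252) and when all genes with a count were kept (p 0.0646). It was also lost without control replicates 1, 2 or 3 (p 0.0665, 0.116 and 0.0712) or TGF-β1 replicates 1 or 2 (p 0.0726 and 0.111). In the lipoxygenase branch, 4 of 13 genes were tested and 1 was called, against 44.3% of all genes tested. ALOX5AP, the 5-lipoxygenase activating protein, had 70, 60 and 76 reads in the control libraries, against 224, 178 and 157 with TGF-β1, and its log2 fold change was 1.42 ± 0.14 (SE) with an edgeR adjusted p of 1.70e-05. ALOX12 had the lowest log2 fold change of this list at -0.18 and was not called (edgeR adjusted p 0.327).

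EP2 and EP4 raise cAMP, so genes known to respond to cAMP were counted. Of 9 genes 8 were tested, 4 rose and 1 fell, against 44.3% called, 22.2% higher and 22.1% lower, of all genes tested. Their median log2 fold change was 0.36. PDE4D, a cAMP phosphodiesterase, had 27, 28 and 32 reads in the control libraries, against 144, 148 and 113 with TGF-β1, with a log2 fold change of 2.20 ± 0.15 (SE), at an edgeR adjusted p of 8.37e-07. NR4A3, a nuclear receptor, had 570, 557 and 507 reads in the control libraries, against 98, 100 and 84 with TGF-β1, with a log2 fold change of -2.55 ± 0.09 (SE), at an edgeR adjusted p of 6.73e-09. PER1, PDE4A and CREM rose by 0.49, 0.41 and 0.32 on the log2 scale, with edgeR adjusted p values of 6.01e-04, 0.00323 and 0.00617. These genes did not move as 1 group, and several answer to other signals as well.

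**Figure D4:**
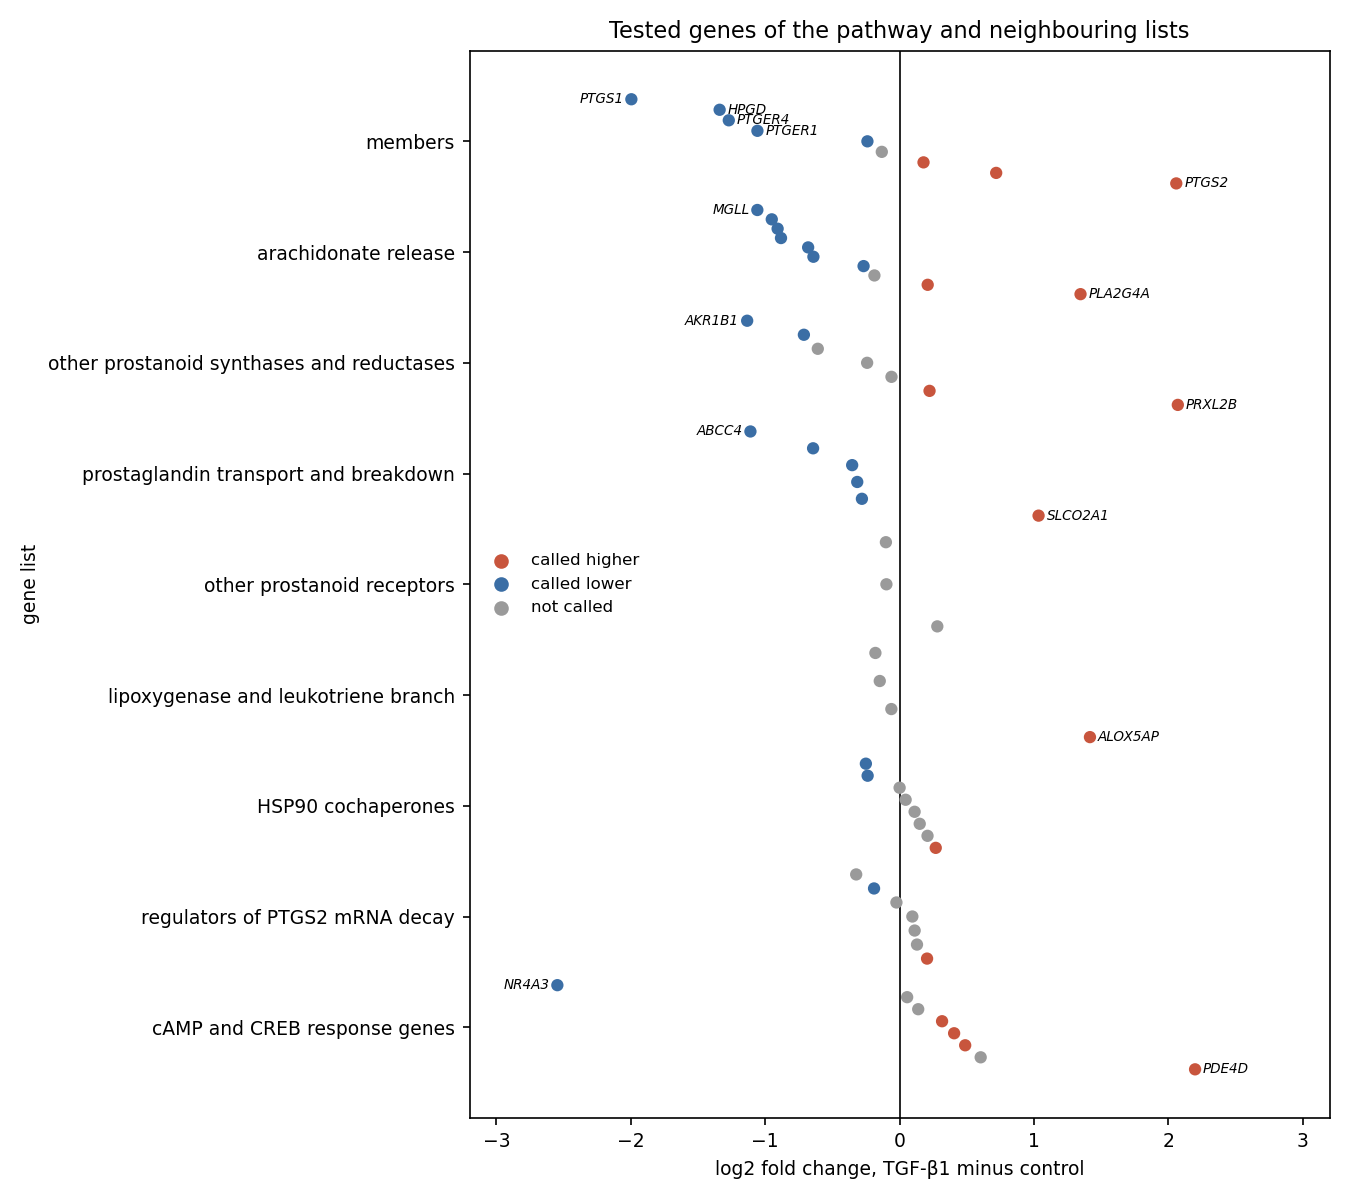
Log2 fold change (TGF-β1 minus control) of every tested gene of the members and of 8 lists around them, 1 row per list. Red is called higher, blue called lower and grey not called, and called genes with a change of at least 2-fold are named. The arachidonate release row lies mostly left of 0, with PLA2G4A at 1.35 to the right.

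Over the 8 lists, 53 of 74 genes were tested and 30 were called, 12 higher and 18 lower, against the 44.3% of all genes given above. Their median log2 fold change was -0.06. PLA2G4A, PRXL2B and NR4A2 did not reach the filter's limit in every library. Among the 50 tested genes that did, 10 were called higher and 18 lower. The lists were chosen with earlier results of these data known and carry no test of their own.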

How the data were processed

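RNA-seq was analysed from 3 control and 3 TGF-β1 libraries of HK-2 cells. Poly(A) RNA was reverse transcribed with random hexamers, and the authors filtered out adapters and reads of low quality. The submitters' processing notes name CASAVA, featureCounts 2.0.1, DESeq2 1.16.1 and hg38. The aligner, the strand setting and the annotation release are not given in the sources used here. The authors deposited raw counts per gene, with TPM and FPKM values beside them. Counts entered the tests, TPM was used for levels and FPKM was not used.

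Low genes were removed by filterByExpr of edgeR 4.0.16 (minimum count 10), and counts were scaled with TMM and compared with the two-sided quasi-likelihood F test with robust dispersion (R 4.3.3). P values were adjusted by Benjamini-Hochberg over all 14860 genes tested. Loci without a gene name, 0.396% to 0.464% of counts, were left out. The SE is the size of the log2 fold change divided by the square root of F. Intervals of read ratios are 95% exact binomial and cover counting error only. The fits were also run on simulated counts with known fold changes.

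The members and lists were chosen with earlier results of these data known. All members were described. List genes were named when called with a mean of at least 5 CPM, or as the largest rise or fall of their list. The 3 genes nearest to PTGS1 and PTGS2 were also named. Alternatives were DESeq2 1.42.0, limma-voom (limma 3.58.1), RLE size factors, total counts only, other filters, a test against the 2-fold limit (glmTreat), names with 1 entry, leaving out each library and a replicate block. One more, counting members that passed the filter in both groups, was chosen after seeing the data.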

Additional observations from a re-analysis of the deposited data

How the results depend on the processing

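Of the members, 8 were called, and between 6 and 8 were called under each alternative that used all libraries, except the test against the 2-fold limit. Under these alternatives 26.8% to 48.3% of all genes were called. The test against the 2-fold limit called 3 members (PTGS1, PTGS2 and HPGD) and 3 of the 53 tested pathway genes. It called 4.42% of all genes. In the reported fit 30 pathway genes were called, and the 2-fold test called fewer. Its threshold is stricter by construction. With 1 library left out, the count of members ranged from 5 to 9 and that of pathway genes from 24 to 30, with the lowest value for both without control replicate 1. Of all genes, 35.4% to 47.6% were called in these leave-one-out fits. PTGS1, PTGS2, HPGD and PTGIS were called in all 6 of these fits. No log2 fold change of a member or named pathway gene changed sign under any alternative run. Scaling by total counts moved the median of all genes tested to -0.10 (log2), and under it PTGES was called and PTGES3 was not.

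Same-numbered control and TGF-β1 libraries had correlations of deviations of 0.111, -0.0117 and 0.0762, so the numbers were not taken to pair the libraries. With a replicate block, 8 members and 32 pathway genes were called, against 45.7% of all genes. PRXL2B was not called (edgeR adjusted p 0.0833). Depth limits PTGS2, PTGER1, PTGER3, PTGER4 and PLA2G4A, which had at most 38 reads per library. DESeq2 called 6 members, against 38.9% of all genes.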
